A study of Mus musculus with 9 samples.

Results

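Genes of the P450 branch of eicosanoid metabolism were followed in mouse liver RNA. The 9 genes are the Cyp2j epoxygenases Cyp2j5, Cyp2j6 and Cyp2j9, the omega-hydroxylases Cyp4f13, Cyp4f14, Cyp4f15 and Cyp4v3, and the epoxide hydrolases Ephx1 and Ephx2. They were taken by gene symbol from the deposited table of 27945 genes, and all 9 were among the 18113 genes with enough counts to be tested. The samples were livers of mice in 3 groups of 3 libraries, all at 16 days. The combined group received glycyrrhizic acid, a saponin of licorice root, along with gefitinib. The gefitinib group received that drug, an EGFR kinase inhibitor, without glycyrrhizic acid, and the saline group received neither. No group received glycyrrhizic acid alone, and strain, sex, age and dose are not given in the labels. The series addresses liver toxicity of gefitinib and what glycyrrhizic acid does to it.

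Arachidonic acid freed from membranes is oxidised by cyclooxygenases, by lipoxygenases or by P450s. P450 epoxygenases turn it into epoxyeicosatrienoic acids, which act on vessels and inflammation. Soluble epoxide hydrolase, the product of Ephx2, converts these epoxides to less active diols, while microsomal epoxide hydrolase, the product of Ephx1, mainly opens epoxides of drugs and other foreign compounds. P450s of family 4 hydroxylate the far end of fatty acids, and the Cyp4f enzymes also act on leukotriene B, which limits its signal. Hepatocytes are a main site of P450 and epoxide hydrolase expression.

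The heme-binding loop around the cysteine that holds the iron was found once in the coding sequence of each of the 7 P450s. It was searched in the translated sequence as phenylalanine, any 2 residues, glycine, any 3 residues, cysteine, any residue and glycine. The 30 coding bases, 5′ to 3′ from GENCODE M21, are shown because they set the families apart, with the cysteine codon in capitals.
Cyp2j5: ttctcaatgggaaaaagagctTGTcttgga
Cyp2j6: ttctcaatgggaaagcgagctTGCctggga
Cyp2j9: ttctcaatgggaaaacgtgctTGTcttgga
Cyp4f13: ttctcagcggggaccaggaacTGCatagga
Cyp4f14: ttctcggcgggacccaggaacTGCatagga
Cyp4f15: ttctccgctgggcccaggaacTGCatagga
Cyp4v3: ttttctgctggacctcgaaacTGTattggt

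Within the loop, pairs of Cyp2j genes shared 26 to 28 of 30 bases and each pair of Cyp4f genes shared 27. Cyp4v3 shared 19 to 21 bases with the Cyp4f genes. Over whole coding sequences, identity was 78.9% to 82.8% between the Cyp2j genes, 75.5% to 80.3% between the Cyp4f genes and 54.8% to 56.3% between Cyp4v3 and the Cyp4f genes. Ephx1 and Ephx2, which carry out a like reaction, were 49.9% identical in an alignment that allows gaps. No unrelated pair was aligned, so this value does not show that they are related. Genes as alike as the Cyp4f genes could share reads. The share of 50-base windows of each transcript found in another gene was therefore counted. It was at most 0.422% for the Cyp2j genes, 2.45% to 2.72% for the Cyp4f genes, 1.89% for Ephx1 and 0% for Ephx2. For Cyp4v3 it was 7.02%, shared with the overlapping gene model Gm45753, which had 63 counts in combined 1 and at most 5 in any other library.

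The 3 Cyp2j genes lie together on chromosome 4 (GRCm38, as deposited), with Cyp2j6 (ENSMUSG00000052914) at chr4:96516138-96553661, Cyp2j9 (ENSMUSG00000015224) at chr4:96568429-96591578 and Cyp2j5 (ENSMUSG00000052520) at chr4:96628773-96664154, all on the minus strand. The Cyp4f genes lie on chromosome 17, with Cyp4f15 (ENSMUSG00000073424) at chr17:32685627-32703352 on the plus strand. Cyp4f14 (ENSMUSG00000024292) at chr17:32905070-32917342 and Cyp4f13 (ENSMUSG00000024055) at chr17:32924688-32947402 are on the minus strand. Cyp4v3 (ENSMUSG00000079057) is at chr8:45304944-45333216, Ephx1 (ENSMUSG00000038776) at chr1:180976210-181020904 and Ephx2 (ENSMUSG00000022040) at chr14:66084374-66112386, each on the minus strand.

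Libraries held 56440871 to 60665156 counts, and a member had at least 1355 counts in every library. Levels are given in the deposited FPKM, which are scaled to gene length and library size. Folds with standard errors (SE) were fitted to the counts of all tested genes by the quasi-likelihood method of edgeR, with p adjusted after Benjamini and Hochberg, and a gene was called at an adjusted p under 0.05. Whether libraries of a group are from separate mice is not in the labels, and the p-values reflect only how far these libraries differ, possibly for technical reasons. Markers of hepatocytes fitted the liver label, since 10 such transcripts summed to 85284 to 95174 CPM (counts scaled to a common library total) in the combined, 91063 to 94063 in the gefitinib and 86892 to 95051 in the saline libraries. In whole tissue, fewer cells of a type and less RNA per cell cannot be told apart.

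The most abundant of the 9 transcripts changed place with treatment. Ephx1 led in the combined group with 296 ± 10.5 FPKM (SD, n = 3 here and below), ahead of Ephx2 and Cyp2j5, whose ranges overlapped. Ephx1 also led with gefitinib, with Ephx2 next and Cyp2j5 after it. In saline livers Ephx2 led with 304 ± 21.3 FPKM, and Ephx1 and Cyp2j5 came next with overlapping ranges. Cyp4f14, Cyp4f15 and Cyp4v3 formed a middle band. Their ranges all overlapped in the combined group, but Cyp4f15 lay above Cyp4v3 in all gefitinib libraries and Cyp4v3 above Cyp4f14 in all saline libraries. Cyp2j9 was the lowest in every group, below Cyp2j6, and Cyp4f13 lay above Cyp2j6 with gefitinib and with saline but overlapped it in the combined group. The FPKM of the 7 P450s summed to 335 ± 33.6 in the combined group, 391 ± 42.4 with gefitinib and 482 ± 35.0 with saline. The hydrolases summed to 438 ± 37.9, 516 ± 22.4 and 487 ± 30.7 FPKM in the same groups, a narrower spread of group means.

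**Figure D1:**
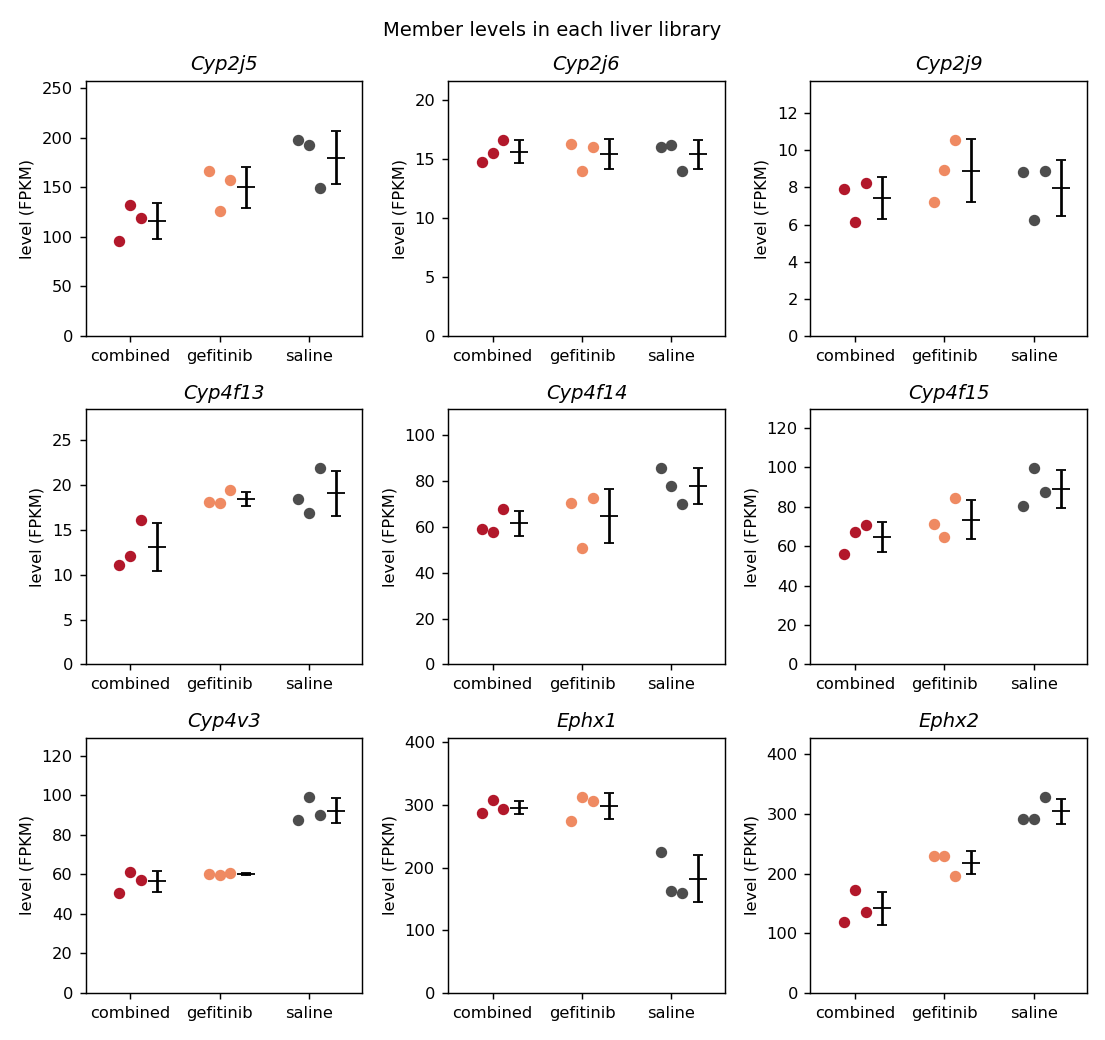
Level in FPKM of each of the 9 genes, 1 panel per gene with its own linear axis from 0, with a point for each library of the combined, gefitinib and saline groups and, to the right of the points, the mean ± SD of 3 libraries. Ephx1 is lowest and Ephx2 highest in the saline libraries, while the groups overlap for Cyp2j6 and Cyp2j9.

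The epoxide hydrolases moved in opposite directions against saline. Ephx1, the microsomal enzyme, had 287, 307 and 294 FPKM in combined livers, 275, 313 and 307 FPKM in gefitinib livers and 225, 163 and 159.5 FPKM in saline livers. All 6 libraries of gefitinib-treated mice lay above the 3 saline libraries, of which saline 1 was the highest. Ephx1 rose 1.59-fold with gefitinib against saline (log2 0.66, SE 0.13, adjusted p = 0.0482). In combined against saline livers it rose 1.39-fold (log2 0.48, SE 0.13, adjusted p = 0.0312). Combined and gefitinib livers overlapped in FPKM but not in the TMM-scaled CPM behind the test, which correct for differences in library makeup (557 to 625 CPM in combined against 653 to 693 CPM in gefitinib livers), and their difference was not called (log2 -0.19, SE 0.13, adjusted p = 0.436). The gefitinib call was close to the threshold: it was lost when any 1 library other than saline 1 was left out, with adjusted p between 0.0580 and 0.153. The combined call was lost without saline 2, saline 3, combined 2 or combined 3 (adjusted p 0.0816 to 0.0999), when only the 6 libraries compared were fitted (0.0644) and with the replicate block (0.0680). The gefitinib call held in 4 of 10 other settings and was lost with library size alone, no filter on low counts, limma on log2(FPKM + 1) or log2(FPKM + 0.1), the replicate block and only the 6 libraries compared (adjusted p 0.0509 to 0.117).

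Ephx2, the soluble enzyme, had 118, 172 and 135 FPKM in combined livers, 229, 229 and 196 FPKM in gefitinib livers and 291, 292 and 328 FPKM in saline livers. The 3 groups did not overlap, with combined lowest and saline highest. Ephx2 fell 2.50-fold in combined against saline livers (log2 -1.32, SE 0.16, adjusted p = 0.000708), and the call held with each of the 9 libraries left out in turn. In combined against gefitinib livers it fell 1.74-fold (log2 -0.80, SE 0.16, adjusted p = 0.0145), a call lost without gefitinib 1 or combined 3 (adjusted p 0.0514 and 0.0574). Gefitinib against saline gave a log2 difference of -0.52 (SE 0.16) that was not called, with adjusted p = 0.167.

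The ratio of Ephx1 to Ephx2 within a library, both in FPKM, does not depend on the scaling of libraries. It was 2.43, 1.79 and 2.17 in combined livers, 1.20, 1.37 and 1.57 in gefitinib livers and 0.774, 0.559 and 0.486 in saline livers. No group overlapped another. The mean ratio was thus 2.13 ± 0.323 in the combined, 1.38 ± 0.183 in the gefitinib and 0.606 ± 0.150 in the saline group. An exact two-sided permutation test gave p = 0.1 for each pair of groups, which is the smallest that 3 against 3 libraries allow.

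**Figure D2:**
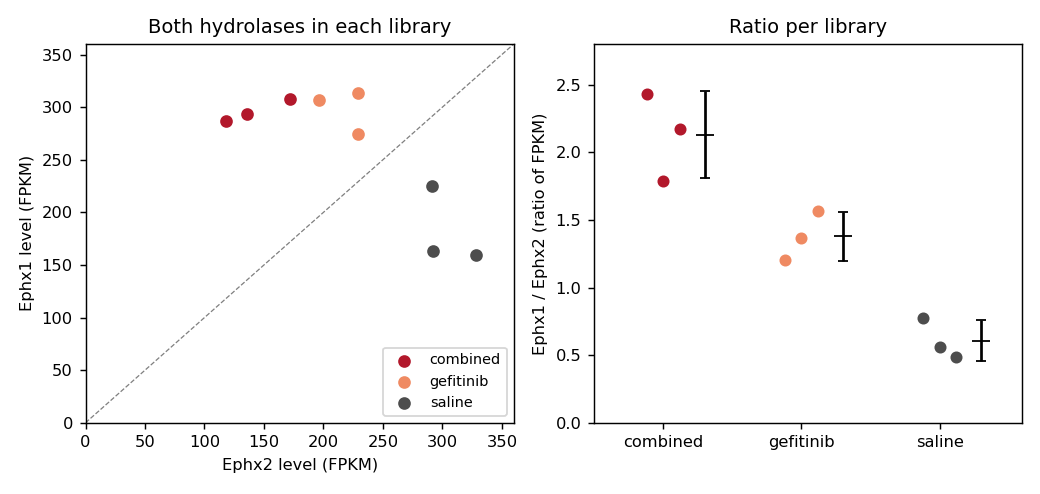
Left, the level of Ephx1 against that of Ephx2 in each library, both in FPKM, with a dashed line where they are equal; right, the ratio of Ephx1 to Ephx2 per library with the mean ± SD of 3 libraries. The ratio lies between 1.79 and 2.43 in combined libraries, between 1.20 and 1.57 in gefitinib libraries and below 1 in all 3 saline libraries.

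Among the epoxygenases, the abundant Cyp2j5 fell in the combined group, and the low-level Cyp2j6 and Cyp2j9 were not called in any comparison. Cyp2j5, an arachidonic acid epoxygenase of mouse liver and kidney, had 96.2, 132 and 119 FPKM in combined livers, 166, 126 and 157 FPKM in gefitinib livers and 198, 193 and 149.7 FPKM in saline livers. Every combined library lay below every saline library, and gefitinib libraries overlapped both in FPKM. The fall in combined against saline livers was 1.81-fold (log2 -0.85, SE 0.18, adjusted p = 0.0108). It held with each library left out. Against gefitinib, combined livers differed by a log2 value of -0.55 (SE 0.18, adjusted p = 0.0908), and gefitinib differed from saline by -0.30 (SE 0.18, adjusted p = 0.505), neither called.

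Cyp2j6, an epoxygenase also known from the intestine, averaged 15.6 ± 0.959 FPKM in combined livers, 15.4 ± 1.26 in gefitinib livers and 15.4 ± 1.20 in saline livers. These group means differed by less than the spread between libraries. Its log2 differences were -0.20 (SE 0.12) in combined against saline, -0.16 (SE 0.12) in combined against gefitinib and -0.04 (SE 0.12) in gefitinib against saline, with adjusted p of 0.288, 0.468 and 0.928, and all 3 took the other sign, with values up to 0.02302, with scaling by library size alone or in FPKM. Cyp2j9, an epoxygenase known from mouse brain, averaged 7.43 ± 1.15 FPKM in combined, 8.91 ± 1.67 in gefitinib and 7.98 ± 1.5 in saline livers. Its groups overlapped in FPKM, and the log2 difference of combined livers was -0.32 against saline and -0.43 against gefitinib (SE 0.17 each, adjusted p 0.236 and 0.154). Gefitinib against saline was 0.11 (SE 0.17, adjusted p = 0.843). Cyp2j5 made up 83.2% of the summed Cyp2j FPKM in the combined group, 85.9% with gefitinib and 88.4% with saline. Combined and saline libraries did not overlap in this share (80.9% to 85.9% against 86.7% to 89.6%, exact two-sided permutation p = 0.1).

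The omega-hydroxylases were lower in combined than in saline livers in all 4 cases. Only Cyp4v3 was called with gefitinib against saline and only Cyp4f13 in combined against gefitinib livers, and whether members differed from each other in response was not tested. Cyp4f13 had 11.0, 12.1 and 16.1 FPKM in combined livers, 18.1, 18 and 19.4 FPKM in gefitinib livers and 18.4, 16.9 and 21.9 FPKM in saline livers. The combined libraries lay below all others, and gefitinib and saline libraries overlapped. Cyp4f13 fell 1.69-fold in combined against saline livers (log2 -0.76, SE 0.16, adjusted p = 0.0112). It fell 1.59-fold in combined against gefitinib livers (log2 -0.67, SE 0.16, adjusted p = 0.0323). The second call was lost without gefitinib 1, 2 or 3, or combined 1 or 2 (adjusted p 0.0622 to 0.0981), with scaling by library size alone, no filter on low counts and limma on log2(FPKM + 1) or log2(FPKM + 0.1) (0.0563 to 0.0571), while the first held with each library left out. Gefitinib against saline was -0.09 on the log2 scale (SE 0.16, adjusted p = 0.873).

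Cyp4f14, which hydroxylates leukotriene B and the side chain of vitamin E in the mouse, had 59.2, 57.7 and 67.7 FPKM in combined livers, 70.5, 51.1 and 72.7 FPKM in gefitinib livers and 85.6, 77.9 and 70.2 FPKM in saline livers. Combined and saline libraries were apart by a small gap, and gefitinib overlapped both. The fall in combined against saline livers was 1.47-fold (log2 -0.56, SE 0.16, adjusted p = 0.0389), a call lost without saline 1, 2 or 3, or combined 1 or 2 (adjusted p 0.0515 to 0.120). It held in 5 of 10 other settings and was lost with library size alone, no filter on low counts, limma on log2(FPKM + 1) or log2(FPKM + 0.1) and the replicate block (adjusted p 0.0585 to 0.129). Cyp4f14 was not called in combined against gefitinib (log2 -0.25, adjusted p = 0.379) or in gefitinib against saline livers (log2 -0.31, adjusted p = 0.437).

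Cyp4f15 had 56.0, 67.0 and 70.7 FPKM in combined livers, 71.2, 64.8 and 84.2 FPKM in gefitinib livers and 80.4, 99.5 and 87.4 FPKM in saline livers. Combined libraries again lay below saline libraries, with gefitinib between and overlapping both. The fall in combined against saline livers was 1.61-fold (log2 -0.69, SE 0.16, adjusted p = 0.0155), lost without saline 2 or combined 1 (adjusted p 0.0543 to 0.0589). Combined against gefitinib was -0.36 and gefitinib against saline -0.33 on the log2 scale, not called (adjusted p 0.195 and 0.390).

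The element CCAAT, on either strand, was found in 6 of the 8 members with a RefSeq promoter window, namely the 3 Cyp4f genes, Cyp2j6, Cyp2j9 and Ephx1, which include genes not called and the gene called higher. Windows of 40 bases from RefSeq promoters (GRCm38.p6) are shown 5′ to 3′ on each gene's own strand to let the start regions of these neighbouring relatives be compared. Capitals mark ATTGG, which reads CCAAT on the other strand.
Cyp4f13, chr17:32947416-32947455, minus strand: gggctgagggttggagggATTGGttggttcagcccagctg
Cyp4f14, chr17:32917385-32917424, minus strand: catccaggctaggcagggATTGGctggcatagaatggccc
Cyp4f15, chr17:32685563-32685602, plus strand: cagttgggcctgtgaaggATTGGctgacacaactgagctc

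The element began 76 bases before the RefSeq start of Cyp4f13, 50 before that of Cyp4f14 and 78 before that of Cyp4f15. These starts differ from the deposited gene bounds given above, so distances from those bounds differ too. Cyp4f14 had 4 RefSeq promoter windows, and its distance holds only for the window shown. Of 12 bases that include the element itself, 11 were identical between Cyp4f14 and Cyp4f15, 9 between Cyp4f13 and Cyp4f14 and 8 between Cyp4f13 and Cyp4f15. The windows were aligned on the element, so its own bases are identical by construction and only the flanking bases could differ. CCAAT on either strand occurs in 37.4% of the 32851 RefSeq promoter windows (250 bases before to 50 after the start), so a match by itself is common. It is a description of sequence, not of binding.

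Cyp4v3 is the mouse counterpart of human CYP4V2, whose loss causes the eye disease Bietti crystalline dystrophy. It was the only P450 of this set called lower against saline in both treated groups. In the main fit the others, except Cyp2j9, also had negative log2 differences against saline in both groups, not called with gefitinib. Cyp4v3 had 50.8, 61.4 and 57.3 FPKM in combined livers, 60.3, 59.5 and 60.6 FPKM in gefitinib livers and 87.5, 99.3 and 90.1 FPKM in saline livers. No library of either treated group reached the lowest saline library, and the 3 gefitinib libraries were nearly equal. Cyp4v3 fell 1.91-fold in combined against saline livers (log2 -0.93, SE 0.12, adjusted p = 0.00103), which held with each library left out. With gefitinib against saline it fell 1.59-fold (log2 -0.67, SE 0.12, adjusted p = 0.0388). The gefitinib call was lost when any 1 library other than saline 1 or combined 1 was left out (adjusted p 0.0503 to 0.148) and in 2 of 10 other settings, no filter on low counts (0.0664) and the replicate block (0.0873). Combined against gefitinib livers differed by -0.26 on the log2 scale (SE 0.12, adjusted p = 0.215), with overlap in FPKM and none in TMM-scaled CPM (193 to 244 CPM in combined against 257 to 279 CPM in gefitinib livers).

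Counted over the 9 genes, 1 was called higher (Ephx1) and 6 lower in combined against saline livers, and Cyp2j6 and Cyp2j9 were not called. In that comparison 17.7% of all tested genes were called, 9.37% higher and 8.32% lower. At an unadjusted p under 0.05 the counts were 7 of 9 members and 31.8% of all genes. The median log2 difference was -0.69 over the 9 genes and -0.009 over all tested genes. In combined against gefitinib livers 2 members were called lower, Cyp4f13 and Ephx2, and none higher. There 9.08% of all genes were called, 4.96% higher and 4.11% lower, 5 of 9 members and 24.3% of all genes had an unadjusted p under 0.05, and the medians were -0.36 for the members and 0.005 for all genes. Groups did not overlap, with combined lower, for 6 members in TMM-scaled CPM (15% of all genes) and for 2 in FPKM (8.15% of all genes). In gefitinib against saline livers 1 member was called higher (Ephx1) and 1 lower (Cyp4v3). The background was 1.14% called, 0.547% higher and 0.591% lower, and 3 of 9 members and 14.1% of all genes had an unadjusted p under 0.05, with medians of -0.30 and -0.001. The comparisons share libraries, so their values stand side by side and are not independent. Without saline 2 the members called in combined against saline livers numbered 4. With gefitinib against saline, the number was 0 or 1 when any library but saline 1 was left out. In combined against gefitinib livers it was 0 without gefitinib 1 and 1 without any other single gefitinib or combined library.

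**Figure D3:**
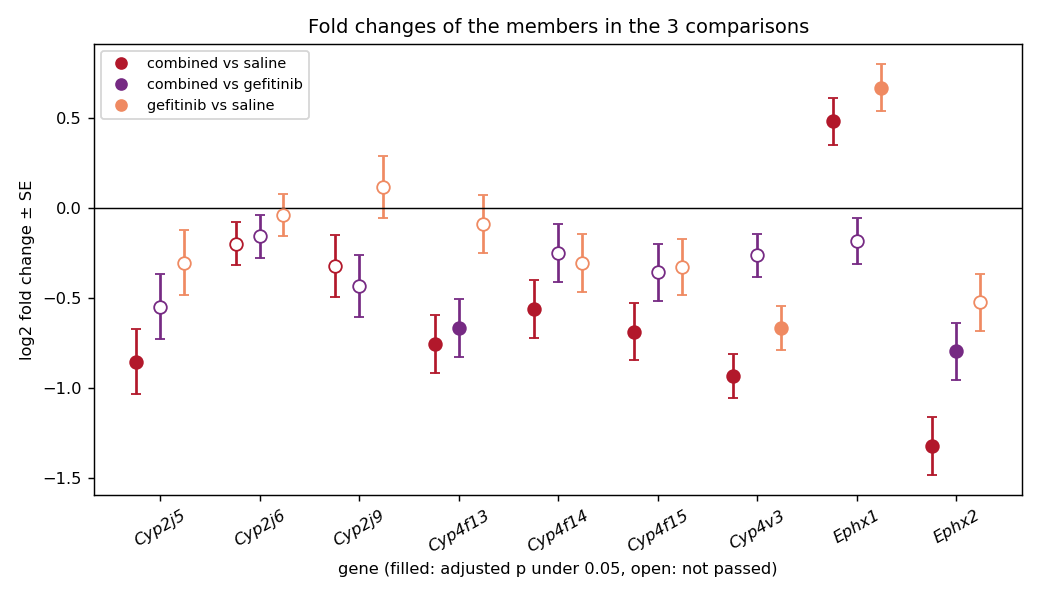
Log2 fold change ± SE of each of the 9 genes in combined against saline, combined against gefitinib and gefitinib against saline livers, from the edgeR fit, filled where the adjusted p is under 0.05 and open otherwise. In combined against saline livers 6 genes are called below 0 and Ephx1 above it.

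Genes of other cell types moved with the same groups. The counts of markers called stand beside the shares of all tested genes called in each comparison, given above. Of 12 sinusoidal endothelial markers, 12 were lower in combined against saline, 6 in combined against gefitinib and 10 in gefitinib against saline livers. Their sum was 109 to 155 CPM in combined, 168 to 195 in gefitinib and 361 to 483 in saline libraries. Of 9 markers of monocyte-derived macrophages, 8 were higher in combined against saline livers, 7 against gefitinib and 3 in gefitinib against saline, with sums of 832 to 1189, 111 to 178 and 81.5 to 107 CPM in combined, gefitinib and saline libraries. Skeletal muscle markers summed to 149 to 212 CPM in combined libraries and 203 CPM in gefitinib 1. They were at 1.03 and 0.967 CPM in gefitinib 2 and 3 and at most 1.47 CPM with saline. Of 10 muscle markers, 8 were called higher in combined against saline livers and none in the other comparisons. Neutrophil markers summed to 13.5 to 165 CPM in combined, 12.9 to 29.4 in gefitinib and 3.61 to 5.71 in saline libraries, with 5 of 7 higher in combined against saline livers. Stellate cell and fibroblast markers summed to 461 to 534, 181 to 222 and 237 to 328 CPM in combined, gefitinib and saline libraries, and erythroid markers to 363 to 659, 833 to 1877 and 590 to 901 CPM. Of 9 stellate cell and fibroblast markers, 3 were called higher and 2 lower in combined against saline livers, so the sum hides opposite changes. Of 5 erythroid markers, 4 were called lower in combined against gefitinib and 1 in combined against saline livers. Kupffer cell sums were 301 to 535, 261 to 332 and 165 to 294 CPM, and cholangiocyte sums 38.3 to 64.7, 21.1 to 45.3 and 26.1 to 41.4 CPM, in combined, gefitinib and saline libraries. Of 8 Kupffer cell markers, 2 were called higher in combined against saline livers, and no cholangiocyte marker was called. No list held a marker at 0 in all 9 libraries. Pericentral hepatocyte markers, which mark the zone near the central vein where many P450s are high, summed to 5422 to 8133 CPM in combined, 8722 to 9023 in gefitinib and 8351 to 11256 in saline libraries. Of these 8 markers, 2 were called higher and 1 lower in combined against saline livers. Of 10 hepatocyte markers, 1 was called higher and 2 lower in combined against saline livers. Of 8 periportal markers, 2 were called lower and none higher in combined livers against saline and against gefitinib. Periportal markers summed to 6360 to 7348, 6516 to 8253 and 6913 to 7903 CPM in combined, gefitinib and saline libraries. The part of these differences in the results for the 9 genes was not tested.

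The closest relatives outside the 9 genes were other Cyp2j and Cyp4f genes. The 3 other Cyp2j genes tested had mean levels under 0.4 FPKM and none was called. Of 5 other Cyp4f genes, Cyp4f17 was called in combined against saline livers, with 7.33 ± 0.664 FPKM in combined and 11.7 ± 0.655 FPKM in saline livers (log2 -0.90, SE 0.21, adjusted p = 0.0180). Of 7 other omega-hydroxylases tested, Cyp4b1 and 6 Cyp4a genes, 4 fell in combined against saline livers and none rose, with a median log2 difference of -1.77. In that comparison 8.32% of all tested genes were called lower. Cyp4a10, a fatty acid omega-hydroxylase, had 78.4, 97.8 and 42.5 FPKM in combined livers, 301, 440.0 and 188 FPKM in gefitinib livers and 520.3, 187 and 559.8 FPKM in saline livers. Combined libraries were lowest, and saline 2 stood at the level of the lowest gefitinib library. Cyp4a10 fell 6.73-fold against saline (log2 -2.75, SE 0.46, adjusted p = 0.00344) and 4.81-fold against gefitinib (log2 -2.27, SE 0.45, adjusted p = 0.0144). Cyp4b1 (log2 -1.77) and Cyp4a31 (log2 -1.92) also fell in combined against saline livers (adjusted p 0.00185 and 0.00666).

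Cyp2c enzymes are the other large epoxygenase family of the liver. Of 13 tested, 5 fell and 1 rose in combined against saline livers, with a median of -0.46, 1 fell in combined against gefitinib, and none was called with gefitinib against saline. Cyp2c40 and Cyp2c69, among those that fell, were far higher in saline 1 than in saline 2 and 3. Cyp2c40 had 119, 19.7 and 26.0 FPKM in saline 1, 2 and 3, and Cyp2c69 had 26.6, 6.63 and 5.62 FPKM. Of all tested genes, 8.32% were called lower and 9.37% higher in combined against saline, and 4.11% lower in combined against gefitinib livers. Cyp2c54 averaged 93.4 ± 12 FPKM in combined, 135 ± 12.2 in gefitinib and 126 ± 21.9 in saline livers. It fell against gefitinib (log2 -0.71, adjusted p = 0.0182) and against saline (log2 -0.65, adjusted p = 0.0155). Cyp2c68 fell against saline by 0.89 on the log2 scale (adjusted p = 0.00624). Cyp2c55 rose to 2.52 ± 0.440 FPKM in combined livers, against 0.213 ± 0.0993 FPKM in saline livers (log2 3.30, adjusted p = 0.00707). The genes that supply P450s with electrons, such as Por, gave no call among 7 in any comparison.

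In the cyclooxygenase list, 5 of 13 genes rose in combined against saline livers and none fell, beside 9.37% of all tested genes called higher. Ptgs1, a cyclooxygenase itself, was not called in any comparison (log2 -0.08 in combined against saline livers, adjusted p = 0.896). Hpgds, a prostaglandin D synthase, rose to 0.959 ± 0.134 FPKM in combined livers, against 0.142 ± 0.0580 FPKM in saline livers (log2 2.51, adjusted p = 0.00163). Ptgr1, which reduces prostaglandins and leukotriene B, had 4.45 ± 0.854 FPKM in combined, 3.17 ± 1.01 in gefitinib and 0.954 ± 0.220 in saline livers. It rose in combined against saline livers (log2 2.00, adjusted p = 0.00192) and in gefitinib against saline livers (log2 1.69, adjusted p = 0.0351). Cbr1, a carbonyl reductase, also rose in combined against saline livers (log2 1.19, adjusted p = 0.00454). In the lipoxygenase list 1 of 7 genes was called, a share near that background, and none in the other comparisons. Dpep2, a dipeptidase that acts on cysteinyl leukotrienes, had 159, 104 and 110 counts in combined, 0, 0 and 16 in gefitinib and 0 in all saline libraries, at least 39.3-fold higher than a floor of 3 counts per saline library (adjusted p = 0.0151). It passed the filter on low counts through the combined group, where it was high, so its call is given as a description only. The macrophage marker sums given above moved with these calls, and their part was not tested.

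Lists of targets of 3 regulators of drug and lipid enzymes were described in the same way. Of all tested genes, 9.37% were called higher and 8.32% lower in combined against saline livers. These shares were 4.96% and 4.11% in combined against gefitinib, and 0.547% and 0.591% in gefitinib against saline livers. PPAR alpha, a fatty acid sensor, has Cyp4a10 among its classic targets. Of 23 genes in its list, 12 fell and 1 rose in combined against saline livers (median -0.61), 5 fell and 1 rose in combined against gefitinib (median -0.36), and none was called in gefitinib against saline (median -0.28). Cd36, a fatty acid carrier also made by macrophages, was the gene that rose against saline (log2 2.46, adjusted p = 0.00595). Of 16 genes in the NRF2 list, which respond to oxidants and electrophiles, 11 rose and none fell in combined against saline livers (median 1.35). There 10 rose in combined against gefitinib (median 1.07) and Gstm1 rose in gefitinib against saline (median 0.47). Pgd, of the pentose phosphate pathway, had 16.1 ± 7.02 FPKM in combined, 3.87 ± 0.149 in gefitinib and 2.23 ± 0.270 in saline livers. It rose against both (log2 1.87 and 2.62, adjusted p 0.00147 and 0.000160). Of 21 genes in the list of the drug sensors CAR and PXR, 5 rose and 2 fell in combined against saline, 2 rose and 1 fell in combined against gefitinib, and 4 rose in gefitinib against saline livers. The shares of this list that fell in combined livers were near those of all tested genes. Gstm3, a glutathione transferase, rose in all 3 comparisons, and its level was 1165 ± 522 FPKM in combined, 172 ± 85.7 in gefitinib and 25.1 ± 10.7 in saline livers. Closely related glutathione transferase genes may share reads, so the split between them is uncertain.

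**Figure D4:**
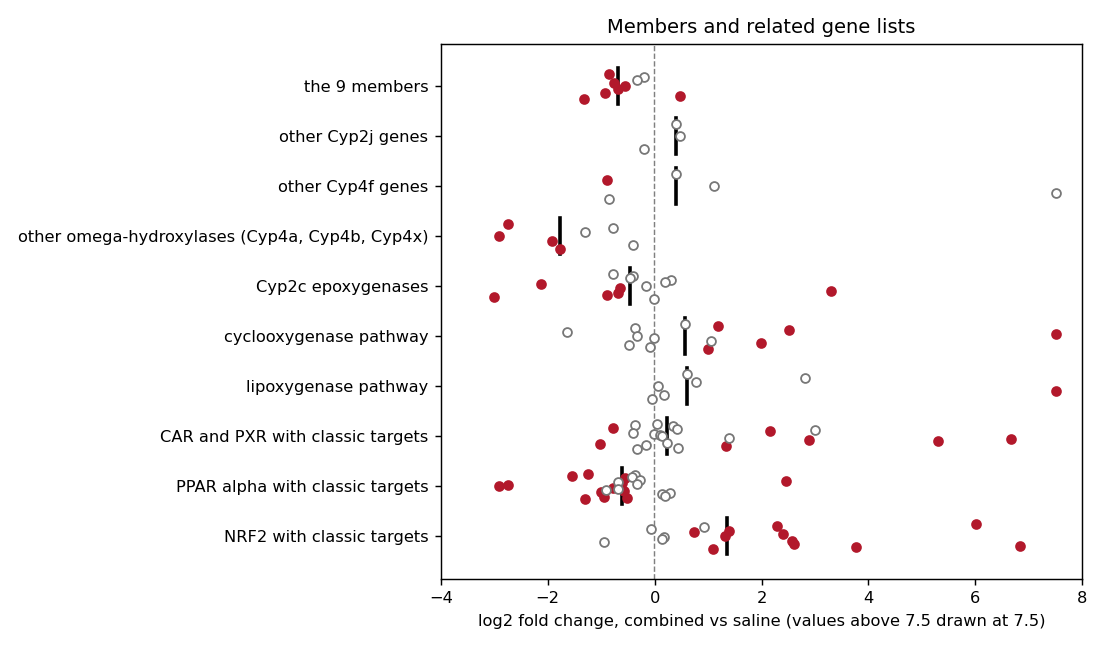
Log2 fold change in combined against saline livers (horizontal axis) of the 9 genes and of each tested gene of 9 related lists, with 1 point per gene, red where called and open otherwise, a black bar at each median and a dashed line at the median of all tested genes. All 7 other omega-hydroxylases lie below 0, and 3 values above 7.5, of genes with 0 FPKM in all saline libraries, are drawn at 7.5.

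Genes whose pattern over the 9 libraries was most like that of a member were found by the root mean square difference of centred log2 CPM, as a description. Only tested genes with a standard symbol (not Gm or Rik) were compared. For Cyp4f13 the closest was Serpina1d, at 0.0476, against a median of 0.513 over these genes, followed by Tlcd1 (0.105) and Serpina1b (0.112). For Cyp2j5 they were Ces3a (0.0712), Mccc2 (0.0941) and Klkb1 (0.111). For Ephx2 they were Sco2 (0.111), Acsl1 (0.148) and Slco2b1 (0.161), against a median of 0.668. Genes close to Cyp4v3 were Rusc2 (0.110) and Cyp2d26 (0.112), and Ephx1 was most like Gtf2b (0.126), Ndufaf5 (0.130) and Get1 (0.133). Cyp4f14 was closest to Nqo2 (0.0788), Ing4 (0.0791) and Atoh8 (0.107), and Cyp4f15 to Cep97 (0.0807), Dbt (0.0895) and Hsd11b1 (0.0929). Genes of a library share its depth and makeup, and small differences of this kind also arise for genes that vary little.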

How the data were processed

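RNA of mouse liver was extracted with a column kit and made into libraries with a SMARTer kit for messenger RNA, per the labels' protocols. The deposited table gives raw counts as whole numbers, with no scaling by the authors, and FPKM values that the authors computed, per the file headers. The build is GRCm38 (mm10), per the submitters' processing notes; the aligner, counter and strandedness were not given in the sources used here, so overlapping genes cannot be separated by strand. Its 18 columns of values were each matched to a library by title.

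Counts were tested with edgeR 4.0.16 in R 4.3.3: filterByExpr at its defaults (18113 genes kept, 9832 not), TMM scaling (factors 0.905 to 1.14), and 1 quasi-likelihood model of the 3 groups, fitted to the 9 libraries (6 residual degrees of freedom). Adjustment ran over all tested genes. Levels between genes are compared in FPKM. Library pairs within a group differed beyond sampling noise (chi-square per degree of freedom 81.8 to 169). Same-numbered libraries did not deviate together (correlations -0.076 to 0.072), so numbers were not taken as pairs.

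The 9 members, 14 pathway lists and 11 marker lists were chosen with earlier results of these data known. The text names all members, up to 3 called genes per list and comparison with the smallest adjusted p, and the 3 genes nearest to each called member in centred log2 CPM (prior count 2); Gstm3, Cd36 and Dpep2 fall under this rule. The results of 2 genes it takes are not reported here. The code was tested on simulated counts with 200 changed genes. Alternatives used limma 3.58.1 on log2(FPKM + 1) or log2(FPKM + 0.1), DESeq2 1.42.0, other scalings and filters, a replicate block, and each library left out. Floors cover counting error only. Sequences are from GENCODE M21 and RefSeq, read with Biopython 1.88, and 8 of the 9 members matched a RefSeq promoter. Figures were drawn with matplotlib 3.10.9.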

Additional observations from a re-analysis of the deposited data

How the results depend on the processing

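Of the 7 members called in combined against saline livers, Cyp2j5, Cyp4f13, Cyp4v3 and Ephx2 were called under all 19 alternatives. The count was 6 or 7 under other settings, 5 with the replicate block, and 4 to 7 with a library left out. In combined against gefitinib livers (2 members) it was 1 with library size alone, with no filter and with limma on log2(FPKM + 1) or log2(FPKM + 0.1), 2 with the replicate block, 3 with DESeq2, and 0 to 2 with a library left out. In gefitinib against saline livers (2 members) it was 1 with library size alone, either limma fit or only the 6 libraries compared, 0 with no filter or the replicate block, 3 with DESeq2, and 0 to 2 with a library left out. Over all genes, gefitinib against saline gave 206 calls, 82 with no filter, 131 at a mean of at least 5 FPKM, 103 and 115 with limma at pseudocounts of 1 and 0.1, 868 with DESeq2, 82 with the replicate block and 32 to 171 with a library left out. Combined against gefitinib gave 1644, 1092 with no filter, 2745 with DESeq2, 1028 with the replicate block and 751 to 1497 with a library left out. Combined against saline gave 3205, 1876 at a mean of at least 5 FPKM, 2496 with the replicate block and 2065 to 2967 with a library left out.

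The block took away the calls of Ephx1 (adjusted p 0.117 and 0.0680 against saline in gefitinib and combined livers), of Cyp4v3 with gefitinib (0.0873) and of Cyp4f14 (edgeR's quasi-likelihood test), although the numbers did not pair the libraries. The sign of Cyp2j6, never called, turned with library size alone and with limma at pseudocounts of 1 and 0.1, to log2 values of 0.006107, 0.01851 and 0.01967 in combined against gefitinib, 0.006551, 0.0217 and 0.02302 in combined against saline, and 0.0004437, 0.003184 and 0.003353 in gefitinib against saline. With a library left out, gefitinib against saline ranged from -0.1114 to 0.05424 for Cyp2j6, from -0.01975 to 0.2203 for Cyp2j9 and from -0.1466 to 0.01977 for Cyp4f13. Library size alone moved the median log2 difference of all genes to 0.171 in combined against gefitinib and 0.199 in combined against saline. It gave 1513 calls higher and 380 lower in combined against gefitinib and 2980 higher and 805 lower in combined against saline, against 899 and 745, and 1698 and 1507, with TMM. The cause of these changes was not tested. Each member had at least 1355 counts in every library, and each group had 3 libraries.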

Other observations

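In the list of arachidonic acid release, 2 of 11 genes rose and 1 fell in combined against saline livers. Beside them, 9.37% of all tested genes were called higher and 8.32% lower, and the share that fell was near this background. Acsl4, which loads arachidonic acid onto coenzyme A, rose to 7.62 ± 1.39 FPKM in combined livers, against 2.93 ± 0.179 FPKM in saline livers (SD, n = 3; log2 1.15, adjusted p = 0.00190 by edgeR's quasi-likelihood test). Pla2g15, a lysosomal phospholipase, also rose (log2 0.43, adjusted p = 0.0243). Faah, which breaks down fatty acid amides, fell to 18.3 ± 1.21 FPKM in combined livers, against 22.2 ± 1.42 FPKM in gefitinib livers (log2 -0.46, adjusted p = 0.0165) and 21.8 ± 0.250 FPKM in saline livers (log2 -0.48, adjusted p = 0.00732). Of 10 eicosanoid receptors 1 was called, a share near the 8.32% of all tested genes called lower in combined against saline livers. It was Tbxa2r, the low-level thromboxane receptor, which fell to 0.111 ± 0.0569 FPKM in combined livers, against 0.451 ± 0.140 FPKM in saline livers (log2 -2.17, adjusted p = 0.0232). Lta4h, the epoxide hydrolase that makes leukotriene B, was not called in any comparison (log2 -0.06 in combined against saline livers).

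In the list of polyunsaturated fatty acid synthesis, 1 of 8 genes rose and 3 fell in combined against saline livers, beside 9.37% and 8.32% of all tested genes. Elovl6, an elongase of saturated fatty acids, had 2.89 ± 0.148 FPKM in combined, 2.82 ± 0.629 in gefitinib and 1.01 ± 0.249 in saline livers. It rose in combined against saline livers (log2 1.30, adjusted p = 0.00258) and in gefitinib against saline livers (log2 1.44, adjusted p = 0.0174). Elovl2, an elongase of long polyunsaturated fatty acids, fell in combined against saline livers (log2 -0.63, adjusted p = 0.0162).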
